A study of Mus musculus with 12 samples.

Results

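Ribosome-bound RNA of mouse dorsal root ganglion (DRG) sensory neurons was compared between neurons given an adeno-associated virus (AAV) labelled AAV-shGpr151, for a short hairpin RNA named after Gpr151, and neurons given AAV-control. The comparison used 6 of the 12 samples of the series, which are the 3 columns labelled IP control and the 3 labelled IP shGpr151, and took in all 9073 genes of the deposited count table. Of these, 8312 had enough counts to be tested. Both groups carried the same genotype, RPL22HA+/+;Advillin-Cre+, in which Cre expressed from Advillin, a gene of peripheral sensory neurons, switches on a haemagglutinin (HA) tag on the ribosomal protein Rpl22. The labels call the cells adult DRG neurons and give neither age, sex, time after infection, nor how many mice or cultures were pooled. The series design describes neurons cultured from mice with an earlier sciatic nerve injury, while the extraction protocol describes lysates of freshly collected ganglia, and the sources used here do not say which of the descriptions holds. The remaining 6 samples are the Input libraries of the same treatments and are used below only as values set beside the IP values.

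In the RiboTag method an anti-HA antibody pulls tagged ribosomes, with the messenger RNA they carry, out of a lysate that also holds untagged glia, fibroblasts and immune cells. The level of a transcript in the pulldown (the IP) depends on how much of that messenger the tagged cells hold, on how much of it sits on ribosomes, and on carry-over from other cells, and these cannot be told apart in IP counts, nor can fewer cells of a type from less RNA per cell. DRG neurons send a long axon to the periphery, which they can regrow after injury, and a preceding injury switches on a growth programme of transcription factors, cytoskeletal proteins, neuropeptides and cytokines. Gpr151 is an orphan G protein-coupled receptor that sensory neurons raise after nerve injury. Csf1, which injured sensory neurons also make, is a growth factor for macrophages and microglia.

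The 3 columns of a group behaved as 1 library counted 3 times. IP control columns held 1414638 to 1415444 counts and IP shGpr151 columns 1094523 to 1095907. Chi-square per degree of freedom between columns of 1 group ran from 1.01 to 1.05 over 6 pairs, where counting noise alone gives about 1, and from 1.802 to 1.849 over the 9 pairs between the groups. Each group was therefore counted as 1 sample, with 4245486 counts summed for IP control and 3285258 for IP shGpr151, so that no difference here has a replicate check. Leaving out a column, as done below, takes reads from what behaved as 1 library and sets the scaling of the libraries anew. It does not check a difference over replicates. Levels are given in CPM, the usual unit of counts scaled to a common library total. Differences are log2 ratios of summed counts, shGpr151 over control, on library sizes scaled by the trimmed mean of M values (TMM), with an exact conditional binomial 95% interval in brackets. Such an interval covers counting error only, and PCR copies of a molecule were counted as separate reads, since no molecular identifiers are named. In what follows "called" means that a gene passed the quasi-likelihood test of edgeR, run over all 8312 genes, at a Benjamini-Hochberg threshold of 0.05. That call compares these libraries, not the treatments, and no p-value of a gene is given.

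Gpr151 itself (ENSMUSG00000042816) was not at a lower scaled level in the pulldown labelled shGpr151. The 3 control columns gave it 107, 109 and 98 counts and the 3 shGpr151 columns 96, 65 and 89, or 74.0 and 76.1 CPM. The columns overlapped, and the log2 ratio was -0.0019 (-0.25 to 0.24). In Input the gene had 24 and 13 counts, a ratio of -0.86 (-1.96 to 0.17). Since no loss of the hairpin's target was measured, "shGpr151" below names a library by its label and not a measured loss of the receptor. Csf1 had 57, 67 and 69 counts against 56, 51 and 63, a log2 ratio of 0.14 (-0.16 to 0.45), and was not called. Sensory neuron genes were well represented in both pulldowns: Prph, a neuronal intermediate filament, stood at 1630 and 1803 CPM, and the neuronal tubulin Tubb3 at 2620 and 2507 CPM. The summed level of 12 sensory neuron genes was 16360 to 16650 CPM per column in control and 15680 to 16010 CPM in shGpr151. These columns did not overlap. The largest single part of the sum was Uchl1, at 8096 and 7480 CPM.

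Differences between the 2 pulldowns were small for most genes, and their direction went with abundance. Of the tested genes, 94.1% lay within 1.5-fold of equal, and the median absolute log2 ratio was 0.18. The test called 309 genes higher (3.72%) and 417 lower (5.02%) in shGpr151, 726 in all (8.73%). Scaling by library totals, which moves every log2 ratio up by 0.043, changed the split to 425 higher and 263 lower. DESeq2 called 443 genes, 106 of them higher. It gave no adjusted p to most genes named below for large ratios, such as Kxd1, Htt and Pfkl. Leaving out a column gave 191 to 211 higher. Library sizes were estimated anew in each such run, and ratios then often lay lower. That of Myl6, 0.148 with all columns, ran from 0.125 to 0.131, and that of Ppia, -0.192, from -0.221 to -0.205. Whether a call lost in such a run goes with the column's reads or with the scaling was not tested. When samples were assumed to vary by a coefficient of 10%, as separate animals or cultures might, 1 gene was called, Kxd1, and at 20% there were 0. A second rule of size, at least 1.5-fold with an interval that excludes 0, was met by 190 genes in the higher direction (2.29%) and 90 in the lower (1.08%). Among the 416 genes with the most counts, 53.9% were called lower and 11.8% higher, with a median log2 ratio of -0.12. Among the 4156 genes with the fewest counts, 0.385% were called lower and 1.11% higher, with a median of 0.043. Abundance here is counts per gene, not corrected for transcript length, which was not analysed. Small ratios of abundant genes pass a counting-based test more readily, and the median ratio also fell with abundance. Counts of calls in the gene groups below stand against 3.72% higher and 5.02% lower of all tested genes. Markers of other cells apart, they are also given with a second fit that removes the median ratio of genes of like abundance (the abundance offset). This takes away the shift with abundance, not the readier calling of abundant genes. With that offset 346 genes were called higher and 151 lower.

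**Figure D1:**
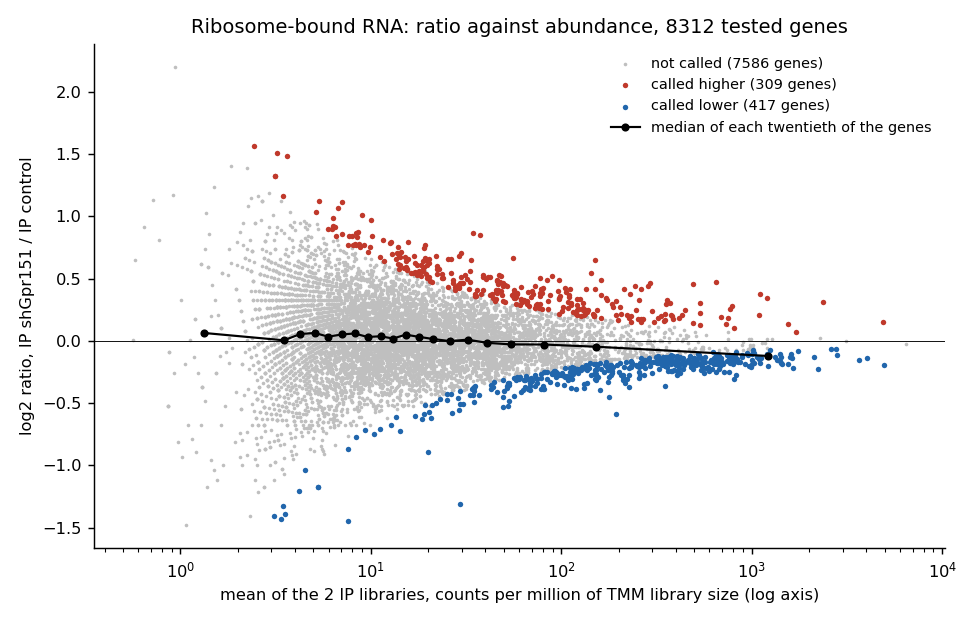
Log2 ratio of each of the 8312 tested genes, IP shGpr151 over IP control, against its mean CPM of TMM library size (2.1 to 2.17 times the column total in the IP columns) on a log axis; red and blue points are genes called higher and lower, and the black line joins the medians of 20 equal bins of genes. The line lies near 0 up to about the middle of the range and falls to -0.12 in the most abundant bin, where blue points crowd just under the line at 0.

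The interferon response had the lowest median of the gene lists described here. Interferons act through transcription factors that bind DNA elements with repeated GAAA blocks upstream of antiviral and antigen-presentation genes. Such blocks, taken as GAAA, any 2 bases and GAAA again, on either strand, were looked for in the 250 bases before each start in RefSeq promoters (build GRCm38.p6, not the build of the counts). They were present in 2.98% of all 32851 windows, in 3.13% of the 6610 tested genes matched to a promoter and in 11 of the 29 tested interferon genes that had one. The upstream stretches of the 3 interferon genes that held the motif and were called lower, and of Ifit1, which held it and was not called, are shown 5′ to 3′ on the gene's own strand, with the bases of the motif matches in capitals:
Isg15, chr4:156200860-156200911, minus strand: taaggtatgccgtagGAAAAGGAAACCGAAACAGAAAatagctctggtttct
Bst2, chr8:71537572-71537617, minus strand: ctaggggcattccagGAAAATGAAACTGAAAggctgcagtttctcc
B2m, chr2:122147533-122147572, plus strand: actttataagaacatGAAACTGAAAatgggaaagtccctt
Ifit1, chr19:34640770-34640828, plus strand: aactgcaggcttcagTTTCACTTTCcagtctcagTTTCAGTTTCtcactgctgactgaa

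Isg15 held 3 overlapping matches, from 57 to 78 bases before the start, and Bst2 held 2, from 115 to 130 bases. B2m held 1 match, 130 to 139 bases before the start. Ifit1 held 2 separate matches, read here from the other strand, between 76 and 104 bases before the start. A match describes letters only, and no binding was measured.

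Of 35 tested interferon response genes, 8 were called lower (22.9%) and 1 higher, with a median log2 ratio of -0.24 against 0.0034 over all tested genes. Below 0 stood 29 of the 35. Ifitm3 (ENSMUSG00000025492), which keeps virus particles from fusing, had 719, 674 and 683 counts in the control columns and 390, 349 and 361 in shGpr151, or 489 and 335 CPM. The groups did not overlap, as was the case for 24.5% of all tested genes, and the log2 ratio was -0.59 (-0.70 to -0.48). Bst2 (tetherin), which holds budding virions at the cell surface, had 94, 93 and 98 counts against 53, 60 and 39, a log2 ratio of -0.58 (-0.87 to -0.29). Its call ended without the third shGpr151 column, at -0.44. Ifitm2, a close relative of Ifitm3, was not called at -0.13 (-0.28 to 0.03).

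Of the antigen-presentation genes in the list, B2m and H2-K1 were called lower. B2m, the light chain shared by MHC class I molecules, had 1787, 1782 and 1895 counts against 1212, 1234 and 1195, a log2 ratio of -0.26 (-0.32 to -0.20). The class I heavy chain H2-K1 had 84, 95 and 81 counts against 45, 50 and 54, at -0.48 (-0.78 to -0.18), whereas the heavy chain H2-D1, with 707 and 531 counts in all, was not called at -0.086 (-0.25 to 0.078). The other class I gene H2-T23 was not called at 0.056 (-0.45 to 0.56). The peptide transporter gene Tap2, the gene Tapbp and the immunoproteasome genes Psmb8, Psmb9 and Psmb10 were not called either. MHC class I genes are closely similar in sequence, so the division of reads among them is uncertain. Isg15, a ubiquitin-like protein that is attached to other proteins, had 140, 172 and 155 counts against 88, 98 and 94, at -0.41 (-0.63 to -0.19). Lgals3bp, a secreted glycoprotein, stood at -0.60 (-0.98 to -0.24).

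Ifi27l2a, a small gene named for its induction by interferon, had the lowest ratio of the group. Its columns held 82, 77 and 71 counts against 39, 26 and 34, a log2 ratio of -0.89 (-1.24 to -0.54) that was called with each column left out in turn. It overlaps its relative Ifi27 in the RefSeq annotation, which was called lower at -0.18 (-0.27 to -0.09), though not with the abundance offset or without the second shGpr151 column, and reads of the pair may be divided uncertainly. Ifit3 was not called at -0.67 (-1.17 to -0.19) on 108 and 54 counts, and Ifit1, with 950 and 736 counts, stood at -0.041 (-0.18 to 0.099).

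Other settings kept the interferon list on the lower side. The abundance offset gave 7 lower and 1 higher with a median of -0.25, library totals 8 and 1, and leaving out each column in turn 6 to 9 lower and 0 or 1 higher. DESeq2 called 5 lower and 0 higher, and gave no adjusted p for some members, among them Ifi27l2a and Bst2. Over all tested genes with the GAAA motif, 14 of 207 were called lower (6.76%) and 3 higher (1.45%), with a median of -0.071, against 4.78% lower, 3.69% higher and a median of 0.0051 in 6403 genes without it. Without the interferon list, 11 of 196 motif genes were lower (5.61%) and 3 higher. Of those 11, 6 encode cytosolic ribosomal proteins (Rps7, Rps19, Rps23, Rpl4, Rpl5 and Rpl38). Within the interferon list the motif did not go with a lower median: the 11 genes with it had a median of -0.22 and 3 calls, and the 18 without it a median of -0.28 and 3 calls. Macrophages and other immune cells also express these genes. Summed over the 13 macrophage markers in the table, among them Aif1, C1qa and Tyrobp, the level was 560 to 588 CPM per column in control and 582 to 624 CPM in shGpr151. Ptprc, Itgam, Mrc1, Cd163, Cd74, H2-Aa and H2-Ab1 were not among the listed genes. Of the 13 markers 1 was called higher (7.69%, beside 3.72% of all tested genes), C1qa, and 0 lower. That call held in 2 of the 6 runs with a column left out, and 2 markers met the 1.5-fold rule in the higher direction. The part of these cells in the interferon ratios was not tested.

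**Figure D2:**
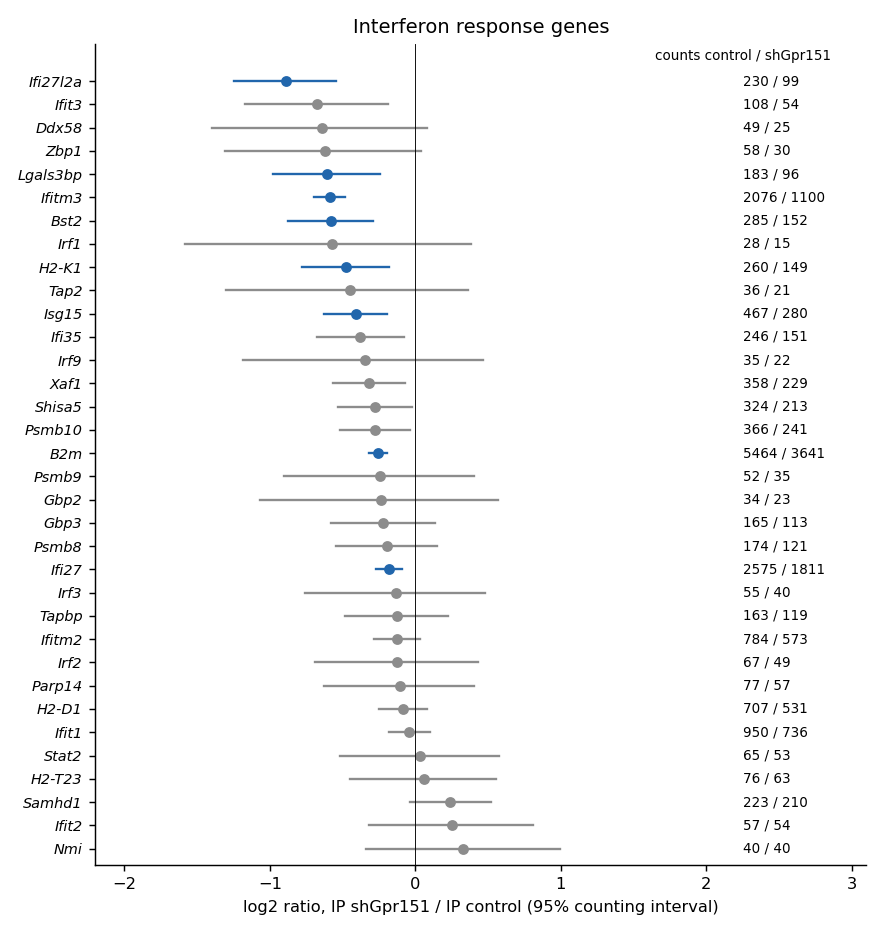
Log2 ratio, IP shGpr151 over IP control, with its 95% counting interval for the tested interferon response genes reported here, and the summed counts of both libraries at the right; blue marks genes called lower and grey those not called. From Ifi27l2a at -0.89 to Ifit1 at -0.041, 29 genes lie left of 0.

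Kxd1 (ENSMUSG00000055553) had the lowest ratio of the genes that the naming rule took. It encodes a subunit of BORC, the complex that recruits the small GTPase Arl8 to lysosomes so that kinesins carry them outward along microtubules, and binds the related BLOC-1 complex of lysosome-related organelles. The control columns held 149, 122 and 102 counts and the shGpr151 columns 59, 22 and 39, or 87.9 and 36.5 CPM. They did not overlap, as the naming rule by ratio required. The log2 ratio was -1.31 (-1.62 to -1.01). The columns of Kxd1 spread far more than counting noise, with a variance over mean of 4.48 in control and 8.58 in shGpr151, where the median tested gene had 0.704 and 0.716, and 0.156% of tested genes spread more in shGpr151. Leaving out 1 column moved the ratio of summed counts between -1.72 and -1.04, and the call held each time, but DESeq2 gave no adjusted p for this gene.

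The other subunits of those complexes did not share a ratio of that size. Of 15 tested BORC, BLOC-1 and Arl8 genes, 2 were called lower (13.3%, beside 5.02% of all tested genes) and 0 higher. The median was -0.21, and the abundance offset gave 1 lower and 0 higher. Bloc1s1, which both complexes use and which lost its call with the offset, on library totals and without the second control column, had 409, 454 and 430 counts against 285, 305 and 291, a log2 ratio of -0.23 (-0.35 to -0.10). The BORC subunit Borcs7 stood at -0.39 (-0.68 to -0.11), Snapin at -0.23 (-0.39 to -0.07) and Borcs8 at -0.13 (-0.41 to 0.16), none of them called. The GTPases Arl8a and Arl8b stood on either side of 0, at -0.21 (-0.42 to 0.01) and 0.12 (-0.12 to 0.37). Among 47 genes of the lysosome and of the proton pump that acidifies it, 4 were lower (8.51%) and 1 higher (2.13%). Over all tested genes 5.02% were lower and 3.72% higher. The abundance offset gave 1 lower and 3 higher in this list. Leaving out a column gave 4 to 9 lower, 9 of them without the third control column, 7 without the third shGpr151 column and 6 without the first or the second. Atp6v0c, the proteolipid of the pump, stood at -0.25 (-0.31 to -0.19), and the protease Ctsd, not called with the offset, at -0.19 (-0.25 to -0.13).

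Genes of the translation and respiration machinery were called lower in large numbers, and in much smaller numbers with the abundance offset. Ribosomal proteins build the ribosome itself, and edgeR called 41 of 48 large-subunit genes and 29 of 34 small-subunit genes lower, and 0 higher. Their medians were -0.15 and -0.16, and the abundance offset gave 3 and 2 lower and 0 and 2 higher, with medians of -0.028 and -0.042. Nuclear genes of oxidative phosphorylation had 44 of 74 lower and 1 higher, a median of -0.15, and 9 lower and 3 higher with the offset. Within the 416 most abundant genes, 87.3% of 79 ribosomal protein genes and 71.7% of 46 oxidative phosphorylation genes were lower, and so were 41.9% of the 291 genes of neither list. Those 291 had a median of -0.087, against -0.12 in all 416. The 2 lists thus helped set the median that the offset removes there, so the counts with the offset compare them partly with themselves. Rplp2, an acidic protein of the ribosomal stalk, had 2649, 2677 and 2654 counts against 1633, 1654 and 1859, a log2 ratio of -0.31 (-0.36 to -0.26). Together the ribosomal proteins made up 7.54% and 5.13% of IP control counts by subunit and 7.03% and 4.75% of IP shGpr151 counts. Processed pseudogenes of ribosomal proteins are many, and the sources used here do not say how reads shared with them were counted.

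Proteins of the mitochondrial ribosome, which translates the few messages of mitochondrial DNA, had a median that the offset hardly moved. Of 78 tested, 10 were called lower and 1 higher, with a median of -0.13, and the offset left 5 lower, 1 higher and a median of -0.12. Without the second control column 5 were lower. Mrps16 had 195, 186 and 171 counts against 105, 96 and 114, with no overlap and a log2 ratio of -0.48 (-0.69 to -0.28). Mrpl52 stood at -0.38 (-0.50 to -0.25) and Mrpl42 at -0.35 (-0.50 to -0.20). Mrps26 was the 1 higher member, with 55, 32 and 53 counts against 60, 53 and 63 and a ratio of 0.66 (0.33 to 0.99).

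The 13 messages encoded by mitochondrial DNA had a median on the other side of 0, with 10 ratios above 0 and 3 below. Of the 13, 5 were called higher and 0 lower, both with and without the offset, with a median of 0.15. Leaving out a column left 2 to 4 of them higher, 2 without the second shGpr151 column. mt-Nd4, a subunit of complex I, had 430, 466 and 460 counts against 413, 508 and 449, or 319 and 417 CPM, a log2 ratio of 0.34 (0.23 to 0.45). mt-Nd6, the complex I subunit read from the opposite strand to the rest, had 44, 31 and 56 against 54, 59 and 50, at 0.64 (0.30 to 0.99). Mitochondria translate these messages on ribosomes of their own, without Rpl22.

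Of 37 proteasome subunits 9 were lower and 0 higher, with a median of -0.099, and the offset gave 3 lower and 3 higher. Psmc3, an ATPase of the regulatory cap, stood at -0.34 (-0.47 to -0.22). Of 56 translation factors 7 were lower and 1 higher, and the offset gave 3 lower and 5 higher. Eif2b1, a subunit of the exchange factor that the integrated stress response restrains, had 75, 71 and 78 counts against 31, 41 and 44, a log2 ratio of -0.62 (-0.96 to -0.29). Its call ended without the first shGpr151 column, at -0.50. Atf4 and Ddit3 (CHOP), transcription factors made when that response is on, were called lower at -0.21 (-0.35 to -0.08) and -0.27 (-0.42 to -0.13), and were the 2 called genes of 35 in that response, a share of 5.71% beside 5.02% of all tested genes. The offset gave 1 lower and 1 higher. Atf4 lost its call with the offset, on library totals, with DESeq2 and voom, and without any of 4 columns, and Ddit3 without the second control column, where 0 of the list were called by edgeR.

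**Figure D3:**
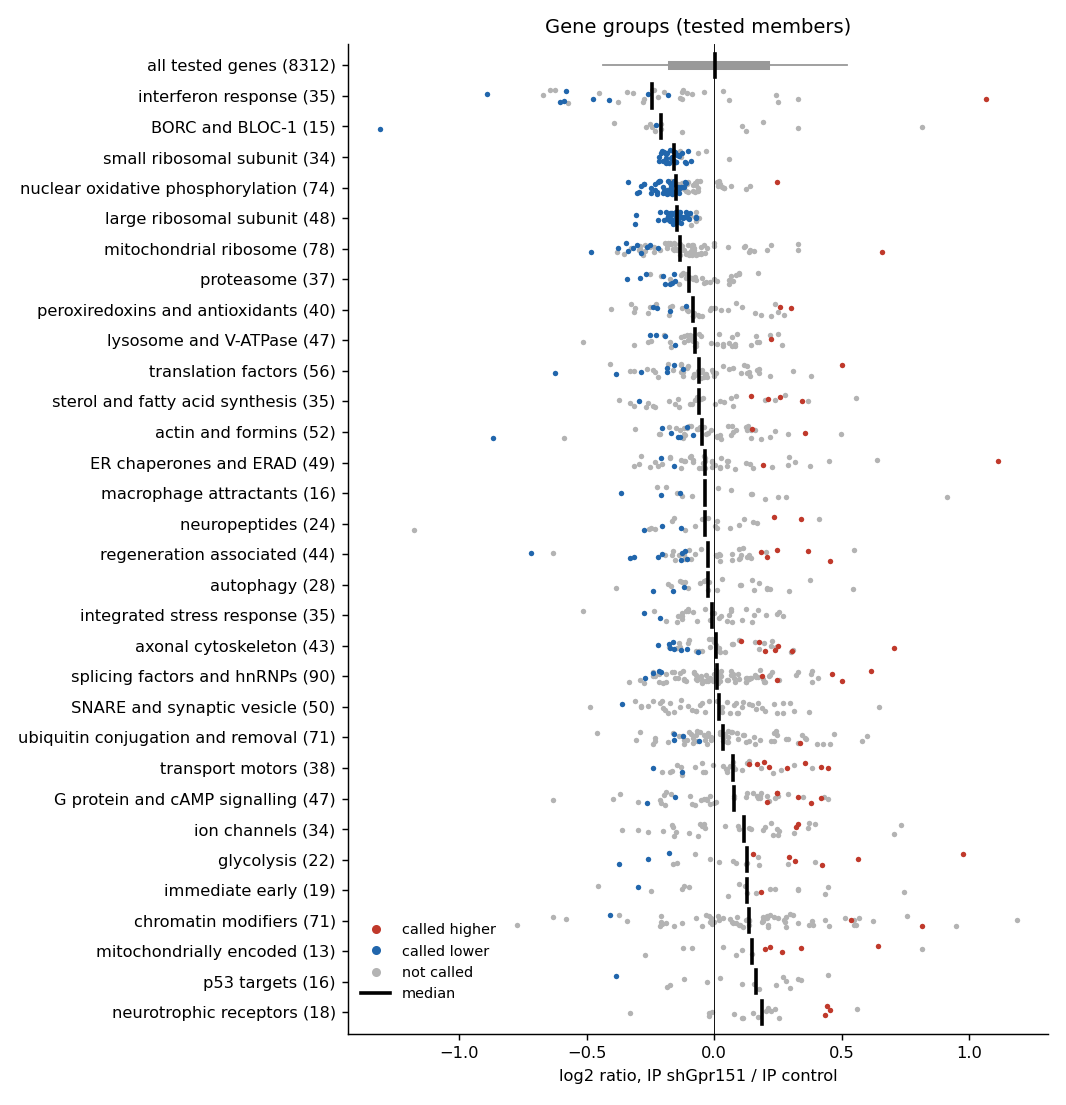
Log2 ratio, IP shGpr151 over IP control, of the tested members of each gene group, with the number tested in brackets; red and blue points are members called higher and lower, black bars are medians, and the grey bar at the top spans the middle 50% of all tested genes with a thin line for the middle 90%. Medians run from -0.24 for the interferon response to 0.19 for neurotrophic receptors, and the ribosomal groups form tight clusters near -0.15.

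Motor genes encode the kinesins and the dynein parts that carry cargo along microtubules. Of 38 tested, 8 were called higher (21.1%) and 2 lower, with a median of 0.072, and 9 were higher and 1 lower with the offset. Leaving out a column left 5 or 6 higher, 5 of them without the first or the second control column. Kif1b, a kinesin of synaptic vesicle precursors and mitochondria, had 299, 269 and 283 counts against 321, 292 and 293, or 200.4 and 276 CPM. After scaling the columns did not overlap, and the log2 ratio was 0.42 (0.28 to 0.55). Kif1c stood at 0.45 (0.24 to 0.65). On the dynein side, the light intermediate chains Dync1li1 and Dync1li2 stood at 0.29 (0.15 to 0.42) and 0.21 (0.14 to 0.29), while the light chains Dynlrb1 and Dynll1 were lower at -0.24 (-0.31 to -0.16) and -0.13 (-0.20 to -0.05). Kif5a and Kif5b, heavy chains of conventional kinesin, were not called at 0.13 (-0.10 to 0.37) and -0.17 (-0.29 to -0.05).

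Calls among cytoskeletal genes went in both directions. Of 43 axonal cytoskeleton genes 7 were higher and 8 lower, while library totals gave 12 and 5 and the abundance offset 14 and 1. Each column left out gave 4 higher and 8 to 10 lower. The higher members were Map2, Map1b, Map4, Map7d1, Ank3, Dpysl2 and Prph. Map2, of dendrites and cell bodies, had 68, 63 and 70 counts against 78, 97 and 86, with no overlap and a log2 ratio of 0.70 (0.43 to 0.98). Map1b, of growing axons, had 1436, 1470 and 1376 against 1417, 1393 and 1408, at 0.31 (0.24 to 0.37), and Map4 stood at 0.25 (0.18 to 0.32). Among the lower ones were tubulins, such as Tubb2a at -0.18 (-0.23 to -0.12), not called with the offset, and the small protein Stmn2, which frees tubulin in growth cones, with 5245, 5211 and 5409 counts against 3619, 3557 and 3673, at -0.22 (-0.26 to -0.19).

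Receptors for growth and guidance factors had 3 of 18 called higher (16.7%, beside 3.72% of all tested genes) and 0 lower. The median was 0.19, and the offset gave the same counts. Lifr, the receptor for leukaemia inhibitory factor, which injured nerve releases, had 1245, 1188 and 1252 counts against 1335, 1331 and 1357, or 868 and 1225 CPM. Its columns did not overlap and its log2 ratio was 0.45 (0.39 to 0.52). The semaphorin receptor Plxna4 stood at 0.44 (0.24 to 0.64) and Fgfr1 at 0.43 (0.15 to 0.73). Without the second control column 1 of the 3 was called, Lifr, and Fgfr1 lost its call without any of 4 columns. The neurotrophin receptors Ntrk2 and Ntrk3 were not called, at 0.15 (-0.34 to 0.64) and 0.22 (-0.10 to 0.54), nor was Ret, the receptor of the GDNF family, at -0.0074 (-0.15 to 0.14).

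G protein and cAMP signalling, the machinery that receptors like Gpr151 couple to, had 6 of 47 genes higher and 2 lower, with a median of 0.075, and 8 higher and 1 lower with the offset. With a column left out 3 to 6 were higher, 3 of them without the third shGpr151 column. Gnb1, a β subunit, had 2823, 2858 and 2922 counts against 2979, 3005 and 2939, or 2026 and 2716 CPM, with no overlap after scaling and a log2 ratio of 0.38 (0.34 to 0.42). Gnao1, the α subunit of Go, stood at 0.33 (0.24 to 0.42), and Akap5, an anchor of protein kinase A, at 0.42 (0.26 to 0.58). The γ subunits Gng5 and Gng3 were lower at -0.26 (-0.38 to -0.15) and -0.15 (-0.22 to -0.09), the latter not with the offset. Gnas, the α subunit that stimulates cAMP, and Gnai2, one that restrains it, were not called at -0.019 (-0.11 to 0.071) and -0.088 (-0.30 to 0.12). Of 34 ion channels 2 were called, both higher, a share of 5.88% beside 3.72% of all tested genes. They were the sodium channel Scn9a at 0.33 (0.14 to 0.51) and the acid-sensing channel Asic3 at 0.32 (0.14 to 0.50). The offset gave the same counts. Leaving out a column left 0 or 1 higher, with Asic3 losing its call in 4 of the 6 cases and Scn9a in 3, and voom did not call Scn9a.

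A list of 24 neuropeptide and secretory granule genes, which also holds the growth-cone gene Gap43, had 3 lower, Calca, Npy and Gap43, and 2 higher. Those shares were 12.5% and 8.33%, beside 5.02% and 3.72% of all tested genes. The offset gave 1 lower and 4 higher, and Npy and Gap43 lost their calls with it. Calca, which encodes the pain peptide CGRP, had 2691, 2730 and 2682 counts against 1819, 1789 and 1732, or 1909 and 1625 CPM, with no overlap and a log2 ratio of -0.27 (-0.32 to -0.22). Npy, a peptide that DRG neurons begin to make after injury, stood at -0.20 (-0.29 to -0.11), while Gal, another peptide of injured neurons, was not called at 0.012 (-0.059 to 0.083). The 2 higher members were Cpe, a carboxypeptidase that trims peptides, at 0.23 (0.11 to 0.36) and Pcsk1n, an inhibitor of a prohormone convertase, at 0.34 (0.15 to 0.52). Without the third control column or the second shGpr151 column neither of these was called, and neither was called by DESeq2.

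Signals to macrophages had 3 of 16 lower (18.75%, beside 5.02% of all tested genes) and 0 higher, and 1 lower and 1 higher with the offset. Ccl2, the chemokine that draws monocytes into injured ganglia, had 244, 220 and 266 counts against 165, 146 and 141, or 172 and 138 CPM. The groups did not overlap, the log2 ratio was -0.36 (-0.54 to -0.19), and the call held with each column left out. Hmgb1 stood at -0.21 (-0.28 to -0.13) and Mif at -0.13 (-0.20 to -0.07), and neither was called with the offset. Ccl7, a neighbour of Ccl2 in function, and Il34, which shares a receptor with Csf1, were not called at 0.15 (-0.05 to 0.34) and 0.20 (0.03 to 0.36).

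Regeneration-associated genes were divided, with 5 of 44 higher and 9 lower, or 6 and 3 with the offset. Rab13, a small GTPase whose messenger is carried into protrusions, had 46, 54 and 57 counts against 32, 24 and 20. Its log2 ratio was -0.72 (-1.13 to -0.32), and it lost its call without the third shGpr151 column. Tnfrsf12a, the receptor of the cytokine TWEAK, stood at -0.33 (-0.44 to -0.22), and the higher members included Klf6 at 0.18 (0.13 to 0.24) and the peptidase Ecel1 at 0.37 (0.23 to 0.50). The injury transcription factors Atf3, Jun and Sox11 were not called at -0.12 (-0.22 to -0.02), 0.13 (-0.01 to 0.27) and 0.023 (-0.17 to 0.22). Cdkn1a (p21), a cell cycle inhibitor, was the 1 called gene of 16 targets of p53, with and without the offset, with 397, 393 and 410 counts against 263, 231 and 239 and a log2 ratio of -0.38 (-0.52 to -0.25).

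Glycolytic genes were called in both directions along the pathway. Of 22 tested, 6 were higher (27.3%) and 3 lower, with a median of 0.13, and the offset gave 8 higher and 1 lower. DESeq2 called 2 higher and 2 lower, and leaving out a column gave 4 or 5 higher and 2 to 4 lower. Called higher were Slc2a1, Pfkl, Pkm, Aldoc, Pgk1 and Eno1b. Slc2a1, a glucose transporter, had 270, 273 and 257 counts against 288, 271 and 296, at 0.42 (0.28 to 0.56). Pfkl, a phosphofructokinase subunit, had 21, 24 and 15 counts against 28, 30 and 36, at 0.97 (0.49 to 1.47). Pkm, the pyruvate kinase at the end of the pathway, had 6204, 6384 and 6137 counts against 6255, 6168 and 6160, or 4411 and 5656 CPM, at 0.32 (0.29 to 0.35). In each of these the scaled columns did not overlap, which for Pfkl was a condition of its naming by ratio. Hk1, the hexokinase of neurons, was lower at -0.37 (-0.59 to -0.15), as was Tpi1 at -0.18 (-0.26 to -0.10). Eno1 was called lower and its near-identical copy Eno1b higher, so the split between them is uncertain, and pooled they stood at -0.16.

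Some groups held few calls. Of 50 SNARE and synaptic vesicle genes 1 was lower and 0 higher by edgeR, of 71 chromatin modifiers 2 were higher and 1 lower, and of 90 splicing factors 5 were higher and 4 lower. The offset gave 0 calls, 2 higher and 1 lower, and 6 higher and 2 lower for these lists. Of 49 endoplasmic reticulum chaperones and degradation genes 2 were higher and 2 lower, and of 19 immediate early genes 1 was higher and 1 lower, with 2 and 1 higher and 0 lower under the offset. Sterol and fatty acid synthesis had 4 of 35 higher (11.4%, beside 3.72% of all tested genes) and 1 lower, with the same counts under the offset. The fatty acid synthase Fasn was among the higher ones, at 0.34 (0.15 to 0.54). Fdps of the mevalonate pathway, at -0.29 (-0.40 to -0.18), was the lower one. Leaving out a column gave 0 to 3 higher, 0 of them by edgeR without the first control column, and Fasn lost its call in 4 of the 6 cases.

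Beyond the groups, single genes with the largest ratios rested on low counts. In both directions they were picked among called genes with no overlap of columns, which held for 24.5% of all tested genes. In the higher direction Syvn1, a ubiquitin ligase of the endoplasmic reticulum, led with 17, 11 and 12 counts against 14, 32 and 23, a log2 ratio of 1.11 (0.53 to 1.71) that lost its call without the second shGpr151 column, at 0.78. Syvn1 overlaps Mrpl49 in the RefSeq annotation, and the sources used here do not say whether strand was used in counting. B3gnt8, a glycosyltransferase, had 21, 14 and 18 against 29, 27 and 29, at 1.01 (0.50 to 1.53). Htt, the huntingtin gene, rested on the most counts of these 12, with 66, 82 and 69 against 93, 123 and 100, or 51.1 and 96.2 CPM. Its ratio was 0.87 (0.62 to 1.13). Acad8, Irf2bp2, Tbx2, Mgat4a, Sympk, Zfyve1 and Zbtb46 stood between 0.84 and 0.91. Of the 12 genes named by ratio in the higher direction 3 kept their call with each column left out, namely B3gnt8, Pfkl and Htt.

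In the lower direction, after Kxd1 and Ifi27l2a, Diaph1, a formin that grows actin filaments, had 27, 33 and 27 counts against 17, 13 and 8, a log2 ratio of -0.87 (-1.46 to -0.30). Ccdc90b, Plscr2, Rab13, Nubp1, Exoc1, Uxs1, Aph1b, Eif2b1 and Mapk9 stood between -0.77 and -0.61. Mapk9, the stress kinase JNK2, had 47, 49 and 50 counts against 27, 25 and 24, at -0.61 (-1.03 to -0.21). Exoc1, of the exocyst complex, had 123 and 60 counts in IP and 1630 and 1428 in Input. Of these 12 genes 2 kept their call with each column left out, Kxd1 and Ifi27l2a.

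**Figure D4:**
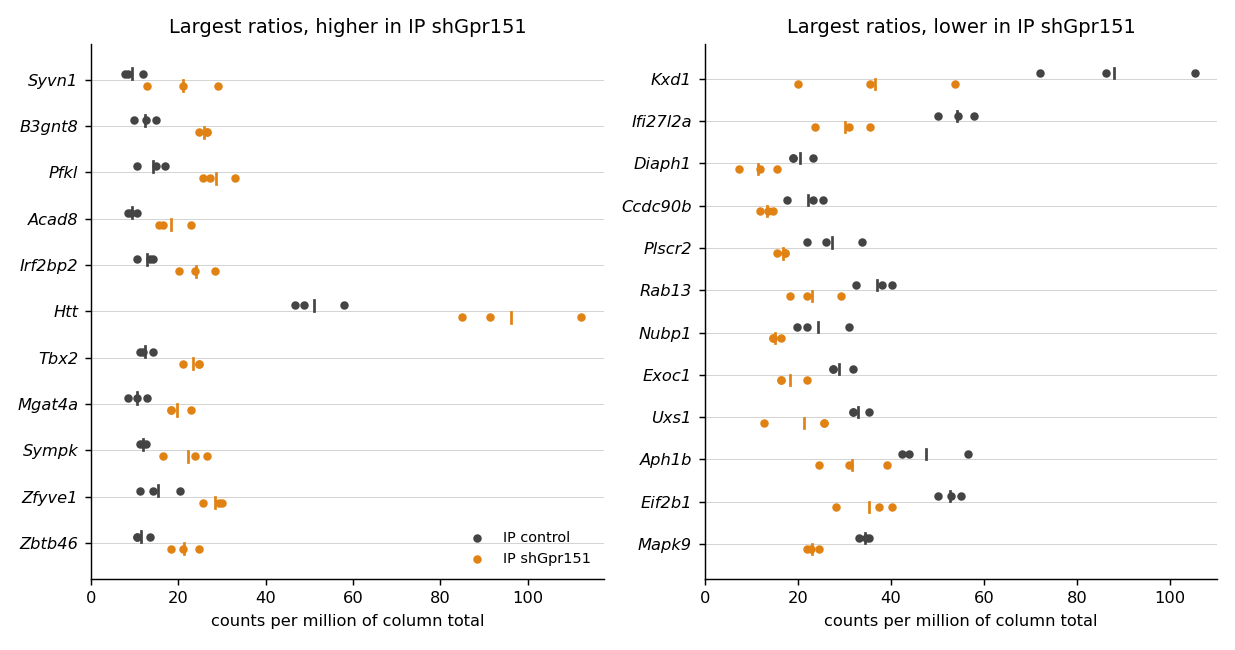
CPM of column total for the genes reported here with the largest ratios in each direction among called genes with at least 100 counts and no overlap of columns; points are the 3 columns of IP control (dark grey) and IP shGpr151 (orange) and short bars their means. The points of the 2 groups are separate for each gene by selection, and Kxd1 shows the widest spread within a group.

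Differences in CPM were largest in abundant genes. Myl6, a myosin light chain, went from 9779 to 11163 CPM, a log2 ratio of 0.15 (0.13 to 0.17). Rtn4 (Nogo), a membrane protein that shapes the endoplasmic reticulum and in myelin restrains axon growth, had 1528, 1649 and 1642 counts against 1767, 1761 and 1815, or 1135 and 1626 CPM. Its columns did not overlap, and its ratio of 0.48 (0.42 to 0.53) was the largest of these. Its relative Rtn1 stood at 0.34 (0.30 to 0.38), the chaperone Hsp90aa1 at 0.14 (0.10 to 0.17), the adhesion molecule Bcam at 0.21 (0.16 to 0.25) and the general transcription factor gene Gtf2a1 at 0.28 (0.23 to 0.33). Ppia (cyclophilin A) led in the lower direction, from 11054 to 9969 CPM at -0.19 (-0.21 to -0.17), followed by the neuronal ubiquitin hydrolase Uchl1, at -0.16 (-0.18 to -0.13), Rpl41 and the actin-binding peptide Tmsb4x, at -0.13 (-0.16 to -0.11). With the abundance offset 8 of the 8 higher genes and 4 of the 8 lower ones were still called, and DESeq2 called 7 and 8 of them, not Hsp90aa1.

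Markers of the other cells of the ganglion differed little in sum. Satellite glia markers, 13 of 15 in the table, summed to 5345 to 5445 CPM per column in control and 5266 to 5324 CPM in shGpr151. These columns did not overlap, and 1 of 13 tested was called higher and 2 lower. Schwann cell markers, 10 of 14, summed to 1347 to 1443 and 1319 to 1350 CPM, with Prx, Drp2, Ncmap and Cldn19 not listed. Fibroblast markers, 15 of 18, summed to 2624 to 2742 CPM in control and 2808 to 2885 CPM in shGpr151, so that the columns did not overlap. Of 14 tested 4 were called higher, among them the collagens Col1a1 at 0.50 (0.34 to 0.67) and Col3a1 at 0.49 (0.27 to 0.70), and 1 lower, Sparc at -0.23 (-0.29 to -0.16). Without the first control column or the third shGpr151 column 2 were higher. Endothelial and mural markers, 9 of 14, summed to 334 to 353 and 312 to 336 CPM with 0 of 7 called by edgeR, and the erythroid genes were not listed. The part of these cells in the ratios of the gene groups was not tested.

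Set beside the Input libraries, which share no column with the pulldowns and of which the labels do not say whether they come from the same lysates, the same contrast often had the other sign. Of the 417 genes called lower in IP, 298 had an Input log2 ratio above 0, and 238 an Input interval entirely above 0 against 61 entirely below. Of the 309 called higher in IP, 81 had an Input ratio above 0, with 9 intervals above and 89 below. Over all tested genes 3773 of 8312 Input ratios were above 0, with 961 intervals above and 1089 below. By group, the large ribosomal subunit had a median of -0.15 in IP and 0.41 in Input, the proteasome -0.099 and 0.33, the interferon response -0.24 and 0.15, and neurotrophic receptors 0.19 and -0.43. Many members of the last 2 lists had few Input counts. The interferon median in Input was that of Irf9, with 22 and 24 counts and an interval of -0.75 to 1.05. Of the receptors near their median, Met had 15 and 11 Input counts, at -0.43 (-1.69 to 0.79), and Fgfr1 2229 and 1629, at -0.43 (-0.52 to -0.34). Kxd1 had 76 and 107 Input counts, a ratio of 0.51 (0.08 to 0.96), and Ccl2 had 967 and 1262, at 0.41 (0.28 to 0.53). Ifitm3 did not follow that pattern, with 2937 and 2794 Input counts and a ratio of -0.051 (-0.13 to 0.024). Whether the IP and Input ratios of a gene differ was not tested here, and the Input columns too are counted as 1 sample a group.

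**Figure D5:**
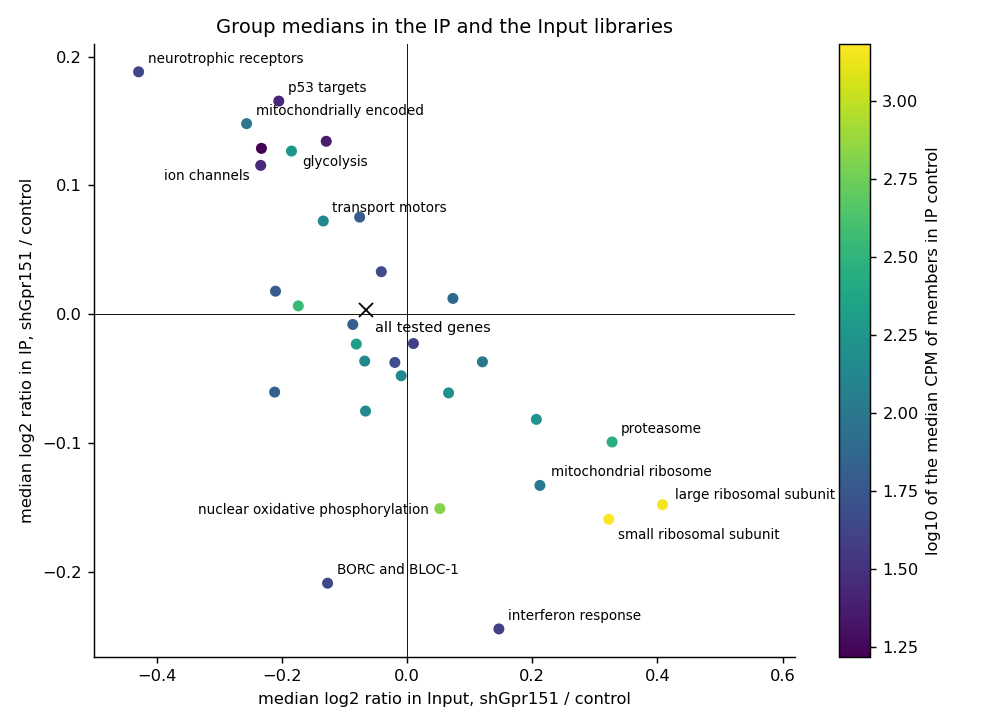
Median log2 ratio, shGpr151 over control, of each gene group in IP (vertical axis) against Input (horizontal axis), coloured by the log10 of the members' median CPM in IP control; the cross marks all tested genes. The ribosomal groups, the proteasome and the interferon response lie at the lower right, and neurotrophic receptors, at 0.19 and -0.43, at the upper left. Input medians of the interferon and receptor groups rest in part on members with few Input counts.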

How the data were processed

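The authors deposited 1 table of read counts per gene, with whole numbers in 12 columns for 9073 Ensembl gene IDs and no value below 1; the submitters' processing notes name minimap2, Salmon, GRCm39 and mm39, and versions, whether strand was used, and how reads that fit several paralogs, pseudogenes or overlapping genes were divided were not given in these sources. Symbols were taken from a table of gene names, which matched 9061 IDs. Groups follow the sample titles. Counts were analysed as deposited with R 4.3.3 and edgeR 4.0.16: filterByExpr with a minimum of 10 counts, TMM factors over all 12 columns (2.1 to 2.17 in IP, 0.462 to 0.475 in Input), 1 mean per group, and glmQLFit with glmQLFTest for IP shGpr151 against IP control. The common biological coefficient of variation between columns was 1.23%. Columns with the same number did not deviate together, with correlations from -0.0032 to 0.019, so the numbers were not taken as pairs. The scripts were tested on simulated data.

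The genes and the gene lists were chosen with earlier results of these data known. Always named were Gpr151, Csf1 and Kxd1. Also named, in each direction, were the 12 called genes with the largest ratio among those with at least 100 counts in the IP libraries and no overlap of columns, and the 8 called genes with the largest CPM difference. Up to 5 called members per list followed by smallest p. Other called genes in the text, such as Isg15, H2-K1, Lgals3bp, Kif1c, Map2, Hk1 and Ecel1, were added after their values were seen. Alternatives were DESeq2 1.42.0, limma 3.58.1 (voom), other scalings and filters, IP columns alone, a replicate block, each column left out, an exact binomial test and assumed variation of 10% and 20% on summed libraries, and an abundance offset. A correction for protein length was planned and not run, since no protein table was used here. Promoter sequences are from RefSeq. Some genes that the naming rule and the lists take are not reported here.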

Additional observations from a re-analysis of the deposited data

How the results depend on the processing

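The counts of called genes depended most on how much the libraries are allowed to vary. With an assumed biological coefficient of variation of 10% on the summed libraries 1 gene was called, Kxd1, with 0 higher and 1 lower, and with 20% there were 0 in all, 0 higher and 0 lower, against 847 by the exact binomial test on the same sums. DESeq2 called 443 genes, 106 of them higher. It gave no adjusted p to most genes named for large ratios, such as Kxd1, Htt and Pfkl, so a gene without its call was not always judged. Library totals gave 263 lower and the abundance offset 151 lower. Leaving out each column in turn, with library sizes estimated anew, gave 191 to 211 higher and 375 to 438 lower. By the 1.5-fold rule it gave 161 to 193 higher and 120 to 141 lower, against 190 and 90 with all columns. A mean of at least 20 counts left 87 and 25 genes past that rule. The replicate block gave 737 calls, 315 higher and 422 lower, so blocking on the column number, which does not pair the samples, moved the count little. Of the genes called in all columns, 97 of 309 higher and 254 of 417 lower ones were called with every column left out. Among the named genes 5 changed sign with the abundance offset: Ubb, then called higher, to 0.059, and, not called, Lgals1 0.0062, Gabarapl2 0.00062, Gstp1 0.0096 and Actb 0.014. The correction for protein length was not run. Median counts per gene of 108 and 88 limit what single low genes can show.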
